A study of Mus musculus with 18 samples.

Results

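Triamcinolone acetonide (TAA) and dexamethasone (Dex) were compared directly in the mouse RPE/choroid at 1 month postinjection. The comparison took the 3 TAA arrays and the 3 Dex arrays of day 30 by treatment, day and replicate in the sample labels. They are 6 of the 18 arrays of the series, and all 45101 probe sets were kept. The animals were male C57BL6/J mice, given as 2 months old in the labels and as 6 to 8 weeks old in the methods, each with 1 intravitreal injection of 1 μL. Dex was given at 10 μg and TAA at 25 μg, both in balanced salt solution (BSS), and the 3 BSS arrays of day 30 are the background measured in the same way. No gene was altered in any group. Because the doses differ, steroid and dose cannot be told apart in any value below. The methods state that 4 animals were injected per group, that the 3 RNA samples of best quality were hybridized, and that tissue was taken in the morning after the retina was peeled away and muscle was cleaned off the outside of the eye. They add that the sclera was taken out during RNA isolation and that most of the choroid probably stayed attached to it.

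Both compounds are synthetic glucocorticoids. They enter cells and bind the glucocorticoid receptor, which moves to the nucleus, raises the transcription of some genes through its own DNA elements and holds down inflammatory genes driven by other factors. In structure, TAA carries a cyclic acetonide on the ring where Dex carries a methyl group and a free hydroxyl group, and TAA is far less soluble in water, so that it is injected as a suspension. In the eye both are used against macular edema and inflammation, and both can raise the intraocular pressure. The RPE is the pigmented layer that recycles visual pigment and takes up shed photoreceptor tips, and the choroid beneath it holds vessels, melanocytes, fibroblasts, mast cells and resident macrophages.

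The deposited values are log2 values on which each probe set was centred at its median over the 18 arrays, so that they hold differences and no level, and whether a marker was present at all cannot be read from them. A value of 0 is the median of the series, and 1 unit is a doubling. The RPE list, 20 genes such as the visual cycle isomerase Rpe65, had array means of -0.059, -0.065 and -0.040 after Dex and 0.032, -0.25 and 0.056 after TAA. TAA replicate 2 was the lowest of these 6 arrays. Rod photoreceptors belong to the retina, which the dissection should remove, and their markers did not keep to the groups. The mean of 17 rod photoreceptor genes was -1.28, 0.10 and 3.19 on Dex replicates 1 to 3 and 2.38, 3.01 and -1.37 on TAA replicates 1 to 3. Of the day 30 arrays, 2 TAA arrays, 1 Dex array and 2 BSS arrays were high for these genes. The Muller glia and astrocyte list had means of -0.20, -0.072 and -0.22 after Dex and 0.040, -0.024 and 0.073 after TAA. These did not overlap, and the BSS arrays, at 0.046, -0.72 and 0.44, spanned both. All 9 genes of that list were higher after TAA, with a median difference of 0.061.

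No probe set differed between the steroids after correction for multiple testing. limma, with 1 mean for each of the 6 groups and a spread shared by all 18 arrays, called 0 of 45101 probe sets at an adjusted p under 0.05 (0% called), with a smallest adjusted p of 0.154. At a nominal p, that is one not adjusted, of at most 0.05 there were 861 (1.91%), 580 lower (1.29%) and 281 higher (0.623%) after TAA, and 2255 would be expected by chance. At the thresholds of the study's methods, a nominal p of at most 0.05 together with a fold of at least 1.5, there were 52 (0.115%), of which 46 were lower (0.102%) and 6 higher (0.0133%) after TAA. These are limma p-values. With the methods' t-test 12 probe sets passed the same thresholds, 8 lower and 4 higher. The split in limma depended on single arrays: without Dex replicate 2 it was 76 lower and 103 higher, and without TAA replicate 2 it was 22 lower and 21 higher. The 3 arrays of each steroid did not overlap for 2211 probe sets (4.9%), 1280 with TAA below Dex (2.84%) and 931 with TAA above (2.06%), and 23 of the 52 were among them (0.051%). Over the 18194 genes, each as the mean of its probe sets, 294 (1.62%) were at that p and 800 (4.4%) did not overlap, 468 with TAA below (2.57%) and 332 with TAA above (1.82%). At the thresholds 23 genes stood (0.126%), 21 lower (0.115%) and 2 higher (0.011%), and 9 of them did not overlap (0.0495%). Against BSS at day 30, 1186 probe sets (2.63%) for TAA and 1910 (4.23%) for Dex were at that p, with 79 (0.175%) and 215 (0.477%) at the thresholds. The median standard error of a difference was 0.13 (log2), and for 85.8% of the probe sets the 95% interval of the difference lay within a fold of 1.5. This share counts dim probe sets too, which could not be set aside on centred values. With 3 arrays against 3, an exact two-sided permutation test cannot go below p = 0.1. The labels number the samples as biological replicates, and the p-values measure the spread between these arrays.

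**Figure D1:**
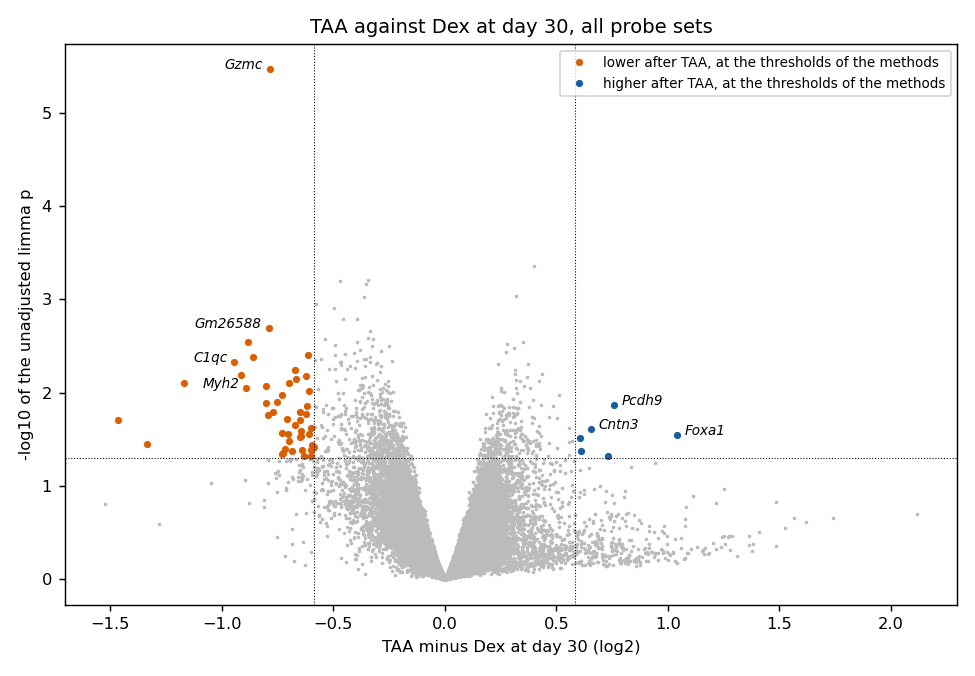
Each point is 1 of 45101 probe sets, placed by the TAA minus Dex difference at day 30 (log2, x axis) and the −log10 of the unadjusted limma p (y axis); dotted lines mark a fold of 1.5 and a p of 0.05. The 46 orange points are lower and the 6 blue points higher after TAA at both thresholds, and Gzmc stands apart at the top with a p of 3.42e-06.

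The gene with the smallest p was Gzmc, which encodes granzyme C, a serine protease of the granules of cytotoxic lymphocytes. Its centred log2 values were 0.40, 0.63 and 0.34 on the Dex arrays, -0.34, -0.43 and -0.22 on the TAA arrays and 0.0087, 0.39 and -0.017 on the BSS arrays. All 3 Dex arrays lay above 0 and all 3 TAA arrays below it, with no overlap. The difference was -0.79 (log2, SE 0.11, unadjusted p = 3.42e-06), with a 95% interval of -1.02 to -0.55 and an adjusted p of 0.154 in limma over all probe sets. Over the genes the adjusted p was 0.0547 in limma, again above the threshold. Against BSS, TAA was at -0.46 and Dex at 0.33, so that the means of the steroids lay on opposite sides of the mean of the shared controls. BSS replicate 2, at 0.39, lay within the range of the Dex arrays. The gene was measured by 1 probe set.

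Other genes of cytotoxic cells had smaller differences. Gzmb, which encodes the granzyme best known for triggering death of target cells, was at 0.24, 0.39 and 0.0019 after Dex and -0.31, -0.26 and 0.054 after TAA. TAA replicate 3 reached into the Dex range, and the difference was -0.38 (log2, SE 0.16, unadjusted p = 0.0276). For Gzma, named here after its values were seen, the difference was -0.43 (log2, SE 0.29, unadjusted p = 0.164), with all TAA arrays below all Dex arrays. Of the 17 measured genes of the T, NK and cytotoxic cell list, 9 were lower and 8 higher after TAA with a median of -0.051, and Gzmc and Gzmb alone had a nominal p of at most 0.05. For comparison, the median of all 18194 genes was 0.0022, with 49.1% lower after TAA and 1.08% lower at that p. Without Dex replicate 1 the list median was 0.020. The list means of the arrays overlapped, at 0.069, 0.10 and -0.082 after Dex and -0.16, -0.18 and 0.057 after TAA.

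The largest negative difference among named genes whose arrays did not overlap and that met the thresholds was that of C1qc, a chain of C1q, the recognition molecule of the classical complement pathway that tissue macrophages and microglia make. Its values were -0.24, 0.96 and 0.25 on the Dex arrays, -0.28, -1.25 and -0.33 on the TAA arrays and -0.31, -0.12 and 0.28 on the BSS arrays. The highest TAA array was just below the lowest Dex array, while TAA replicate 2 was far below and Dex replicate 2 far above the rest. The difference was -0.94 (log2, SE 0.29, unadjusted p = 0.00473), from 1 probe set. C1qa, the chain encoded next to it, was at -0.18, 0.74 and 0.17 after Dex and -0.33, -0.99 and 0.11 after TAA. Here the groups overlapped, since TAA replicate 3 was above Dex replicate 1, and the difference was -0.65 (log2, SE 0.27, unadjusted p = 0.0317). C1qb, the third chain, was at 0.20, 0.32 and 0.17 after Dex and -0.26, -0.88 and 0.38 after TAA. TAA replicate 3 was above all Dex arrays, and the difference was -0.48 (log2, SE 0.22, unadjusted p = 0.043) over 3 probe sets. Without TAA replicate 2 the differences were -0.63 for C1qc, -0.35 for C1qa and -0.17 for C1qb. The complement list as a whole had 12 of 13 measured genes lower after TAA, with a median of -0.18, and the 3 C1q chains were its only members at a nominal p of at most 0.05, beside 1.08% of all genes that were lower at that p. These 3 genes also stand in the macrophage list. The median of the complement list against the shared BSS arrays was -0.028 for TAA and 0.27 for Dex.

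The stretches of 250 bases before the start of C1qb and C1qc are shown because these neighbouring genes encode chains of 1 protein and both had a difference of the same sign, and those of Gzmb and Gzmc because the latter had the smallest p. All lie on the minus strand of GRCm38.p6 (RefSeq), C1qb at chr4:136886201-136886450, C1qc at chr4:136892915-136893164, Gzmb at chr14:56262335-56262584 and Gzmc at chr14:56234658-56234907, and are written 5′ to 3′. Capitals mark each match, on either strand, to the purine box GAGGAA bound by the myeloid factor PU.1 or to AGAACA, an arm of the palindromic glucocorticoid receptor element; none of these matches overlap.
C1qb: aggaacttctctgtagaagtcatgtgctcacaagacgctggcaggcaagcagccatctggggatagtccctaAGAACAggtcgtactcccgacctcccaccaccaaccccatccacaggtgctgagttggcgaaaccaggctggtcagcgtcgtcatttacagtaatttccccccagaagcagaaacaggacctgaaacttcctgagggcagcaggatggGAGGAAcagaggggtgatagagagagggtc
C1qc: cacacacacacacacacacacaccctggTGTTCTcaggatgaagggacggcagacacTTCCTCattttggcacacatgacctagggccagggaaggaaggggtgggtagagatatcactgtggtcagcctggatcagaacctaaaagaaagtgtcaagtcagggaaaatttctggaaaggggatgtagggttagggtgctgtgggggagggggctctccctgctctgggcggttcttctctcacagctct
Gzmb: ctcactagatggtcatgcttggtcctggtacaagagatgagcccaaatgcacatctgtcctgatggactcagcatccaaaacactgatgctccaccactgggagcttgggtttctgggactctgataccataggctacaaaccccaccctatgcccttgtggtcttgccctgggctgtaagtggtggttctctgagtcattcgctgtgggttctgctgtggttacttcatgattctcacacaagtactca
Gzmc: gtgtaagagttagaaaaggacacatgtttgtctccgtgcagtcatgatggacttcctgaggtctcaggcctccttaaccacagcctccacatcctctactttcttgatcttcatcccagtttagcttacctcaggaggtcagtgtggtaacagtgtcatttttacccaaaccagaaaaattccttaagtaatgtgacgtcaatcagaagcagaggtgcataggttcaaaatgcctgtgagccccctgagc
The C1q promoters each held 1 purine box and 1 AGAACA, and these letters were in neither granzyme promoter. The purine box occurred in 23.3% of all 32851 promoter windows of this length and AGAACA in 16.1%. Among the windows found for the macrophage and microglia list, 14 for 13 genes, 8 (57.1%) held the purine box and 5 (35.7%) AGAACA. The whole element, AGAACA and TGTTCT with 3 bases of any kind between them, was in 3 of the 32851 windows (0.00913%) and in none of the 4 shown. These are matches of letters only.

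Of the 20 genes of the macrophage and microglia list, 17 were lower after TAA, the median difference was -0.33 (log2), and 9 had a nominal p of at most 0.05, all lower, beside 1.08% of all genes; none passed at an adjusted p under 0.05. Cd68, a protein of macrophage lysosomes, was at -0.29, 0.60 and 0.23 after Dex and -0.42, -1.37 and -0.049 after TAA. The groups overlapped, because Dex replicate 1 was lower than TAA replicate 3, and the difference was -0.79 (log2, SE 0.30, unadjusted p = 0.0194). Aif1, which encodes the actin-binding protein Iba1 used to stain microglia, differed by -0.68 (log2, SE 0.31, unadjusted p = 0.0451). Ctss, a lysosomal protease that trims the invariant chain, differed by -0.46 (log2, SE 0.14, unadjusted p = 0.00489) and was named after its values were seen. Ctss and C1qc were the only 2 of the 20 members with no overlap, both with TAA below, beside 2.57% of all genes. Csf1r, the receptor for the growth factor on which macrophages depend, was at -0.094, -0.077 and 0.014 after Dex and -0.069, -0.15 and 0.079 after TAA, with a difference of 0.0038 and a 95% interval of -0.23 to 0.24; it too was named after its values were seen, and its sign turned under other settings. In a bulk sample, fewer macrophages and less of these transcripts per macrophage cannot be told apart.

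The macrophage list varied widely among the arrays of a group. Its means were -0.081, 0.26 and 0.013 on the Dex arrays, -0.23, -0.71 and 0.036 on the TAA arrays and -0.30, 0.0041 and -0.057 on the BSS arrays. TAA replicate 2 was the lowest and Dex replicate 2 the highest of these 9, and TAA replicate 3 lay within the Dex range. Without TAA replicate 2, 16 of 20 genes were still lower, with a median of -0.16 and 2 at a nominal p of at most 0.05. Without Dex replicate 2, 17 of 20 were lower, with a median of -0.26 and 2 at that p. Without TAA replicate 3, 19 of 20 were lower, with a median of -0.59 and 12 at that p. With the rod list as a covariate, 17 of 20 were lower, with a median of -0.30 and 8 at that p. Among all 18194 genes, 262 were at that p without TAA replicate 2, 589 without Dex replicate 2 and 541 without TAA replicate 3. There were 425 with the rod covariate, against 294 in the fit as reported. The number at that p also depended on the spread used: it was 2 with the 9 arrays of day 30, 1 with only the 6 arrays compared and 0 with the methods' t-test, with 17 of 20 lower in each. Over all genes it was 123, 200 and 318 in the same order.

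Clec4n, Itgax and Slc40a1 were named by the size of their difference. Clec4n, a fungal pattern receptor of macrophages and dendritic cells, was at 0.60, 0.45 and 0.084 after Dex and -0.19, -0.85 and 0.078 after TAA. The third array of each group almost met, and the difference was -0.70 (log2, SE 0.23, unadjusted p = 0.00793), or -0.44 without TAA replicate 2. Its second probe set gave -0.64 (unadjusted p = 0.0849) with overlapping arrays. Itgax, the integrin chain CD11c of dendritic cells and some macrophages, was at 0.059, -0.010 and 0.010 after Dex and -0.90, -0.97 and -0.026 after TAA, with a difference of -0.65 (log2, SE 0.24, unadjusted p = 0.016). TAA replicates 1 and 2 were far below all Dex arrays, and replicate 3 was just under them. Slc40a1, which encodes the iron exporter ferroportin, differed by -0.65 (log2, SE 0.25, unadjusted p = 0.0195), and without TAA replicate 2 by -0.27. Its second probe set was lower by a smaller amount, -0.44, with overlapping arrays. Others among the 46 lower probe sets, named after their values were seen, were Cybb, the catalytic subunit of the phagocyte oxidase (-0.62), C3ar1, the receptor for complement fragment C3a (-0.62), and Itgb2, the β chain shared by leukocyte integrins (-0.62). The arrays overlapped for Itgb2 and not for Cybb and C3ar1.

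Genes of antigen presentation and of the interferon response also had lower values after TAA than after Dex. All 6 measured genes of the MHC class II list were lower, with a median of -0.56, the most negative of the lists. The median of this list against the shared BSS arrays was -0.43 for TAA and 0.12 for Dex. Of them 1, H2-Aa, which encodes an α chain of class II, had a nominal p of at most 0.05, beside 1.08% of all genes lower at that p. H2-Aa was at -0.24, 0.55 and 0.18 after Dex and -0.46, -0.85 and 0.17 after TAA. The groups overlapped, and the difference was -0.55 (log2, SE 0.25, unadjusted p = 0.0461). The class II list means were -0.29, 0.55 and 0.24 after Dex and -0.37, -0.63 and 0.035 after TAA, and all 6 genes stayed lower when any 1 of the 6 arrays was left out, while the median ranged from -0.81 without Dex replicate 1 to -0.34 without Dex replicate 2. The number at a nominal p of at most 0.05 was 4 without Dex replicate 1, 5 without TAA replicate 3 and 0 in limma without any of the other 4 arrays. Over all 18194 genes it was 672 without Dex replicate 1, 541 without TAA replicate 3 and 262 to 589 without the others. With no array left out it was 294. At day 7 the same list was also lower after TAA in 6 of 6 genes, with a median of -0.67.

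Igtp, an interferon-γ-induced GTPase that guards against intracellular parasites, was at -0.079, 0.95 and 0.53 after Dex and -0.36, -0.32 and -0.17 after TAA. The TAA arrays lay close together below all Dex arrays, which were widely spread, and the difference was -0.75 (log2, SE 0.27, unadjusted p = 0.0127). Gbp8, of the guanylate-binding protein family, was at 0.054, 0.54 and 0.18 after Dex and -0.82, -0.40 and -0.018 after TAA. It did not overlap either and differed by -0.67 (log2, SE 0.21, unadjusted p = 0.00705). Gbp3, of the same family, differed by -0.37 (log2, SE 0.14, unadjusted p = 0.0165). It was the only member of the interferon-stimulated gene list at a nominal p of at most 0.05, beside 1.08% of all genes lower at that p. Of the 15 measured genes of that list, 13 were lower after TAA, with a median of -0.24. Its median against the shared BSS arrays was -0.0029 for TAA and 0.19 for Dex. Irgm2 (-0.67) and Nlrc5, an activator of MHC class I genes (-0.91), were also among the 46 lower probe sets and were named after their values were seen. For both, the arrays overlapped, with TAA replicate 3 above Dex replicate 1.

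**Figure D2:**
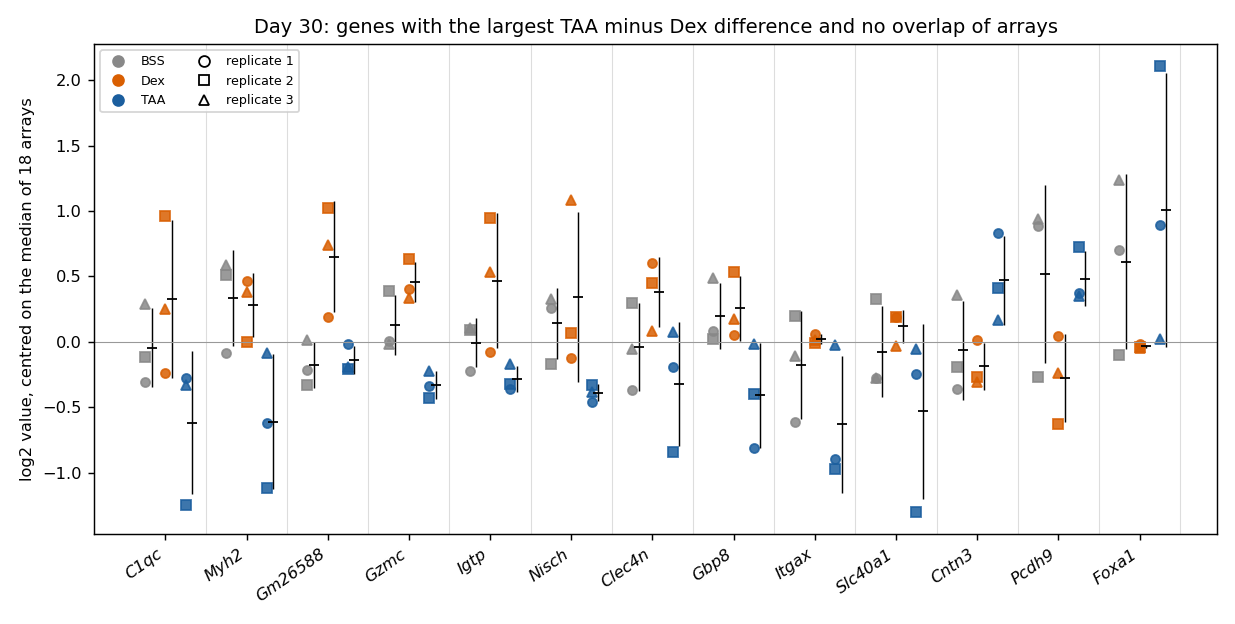
Centred log2 values (y axis) of the 13 genes with the largest differences among those whose TAA and Dex arrays did not overlap, on the 9 arrays of day 30; colour gives the treatment, the marker the replicate number, and the bar the mean and SD of 3 arrays. For Gzmc all Dex arrays are above and all TAA arrays below 0, while for C1qc and Slc40a1 TAA replicate 2 is far below the other arrays.

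Genes of skeletal muscle, a tissue that the dissection was meant to remove, had lower values after TAA than after Dex as well. Myh2, a fast myosin heavy chain, was at 0.46, -0.00094 and 0.38 after Dex and -0.62, -1.12 and -0.089 after TAA. The arrays did not overlap, and the difference was -0.89 (log2, SE 0.30, unadjusted p = 0.0088), with a wider spread among the TAA arrays. Of the 28 genes of the muscle list, 27 were lower after TAA, with a median of -0.33. Myh2 and Des, the intermediate filament desmin (-0.24), had a nominal p of at most 0.05, beside 1.08% of all genes lower at that p. The muscle list means were -0.12, 0.24 and 0.20 on the Dex arrays, 0.097, -0.61 and -0.17 on the TAA arrays and -0.33, 0.31 and 0.29 on the BSS arrays. TAA replicate 2 was again the lowest, and without it 22 of 28 genes were lower with a median of -0.18 and 0 in limma at a nominal p of at most 0.05. Without Dex replicate 1 or without TAA replicate 1, 10 of the 28 were at that p. In these fits 672 and 346 of all 18194 genes were at that p, in either direction, against 294 with no array left out. The part of residual muscle in the other differences was not tested.

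Surface epithelium and photoreceptor genes had positive differences that did not exceed the spread of the arrays. All 17 rod genes were higher after TAA, with a median of 0.71, and 0 had a nominal p of at most 0.05 in limma. Gnat1, the rod transducin α subunit, was at -2.68, 0.40 and 3.89 after Dex and 3.14, 3.65 and -2.46 after TAA, so that each group held both high and low arrays. Without TAA replicate 2 the median of the rod genes was -0.20, and without Dex replicate 1 it was -0.24. Krt12, a keratin of the corneal epithelium, was at -0.080, 9.20 and -0.38 after Dex and 7.99, 0.13 and -0.11 after TAA, which sets 1 array of each steroid apart from all others by a wide margin. The sign of the difference turned for Gnat1 and for Krt12 when single arrays were left out. The cornea and conjunctiva list had 9 of 10 measured genes higher, with a median of 0.76, and 0 at that p. Its median was -0.077 with 7 of 10 lower without Dex replicate 1, -0.055 with 6 of 10 lower without TAA replicate 2 and 2.71 without Dex replicate 2. The part of these tissues in the differences of the immune genes was not tested beyond the fit with the rod list.

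**Figure D3:**
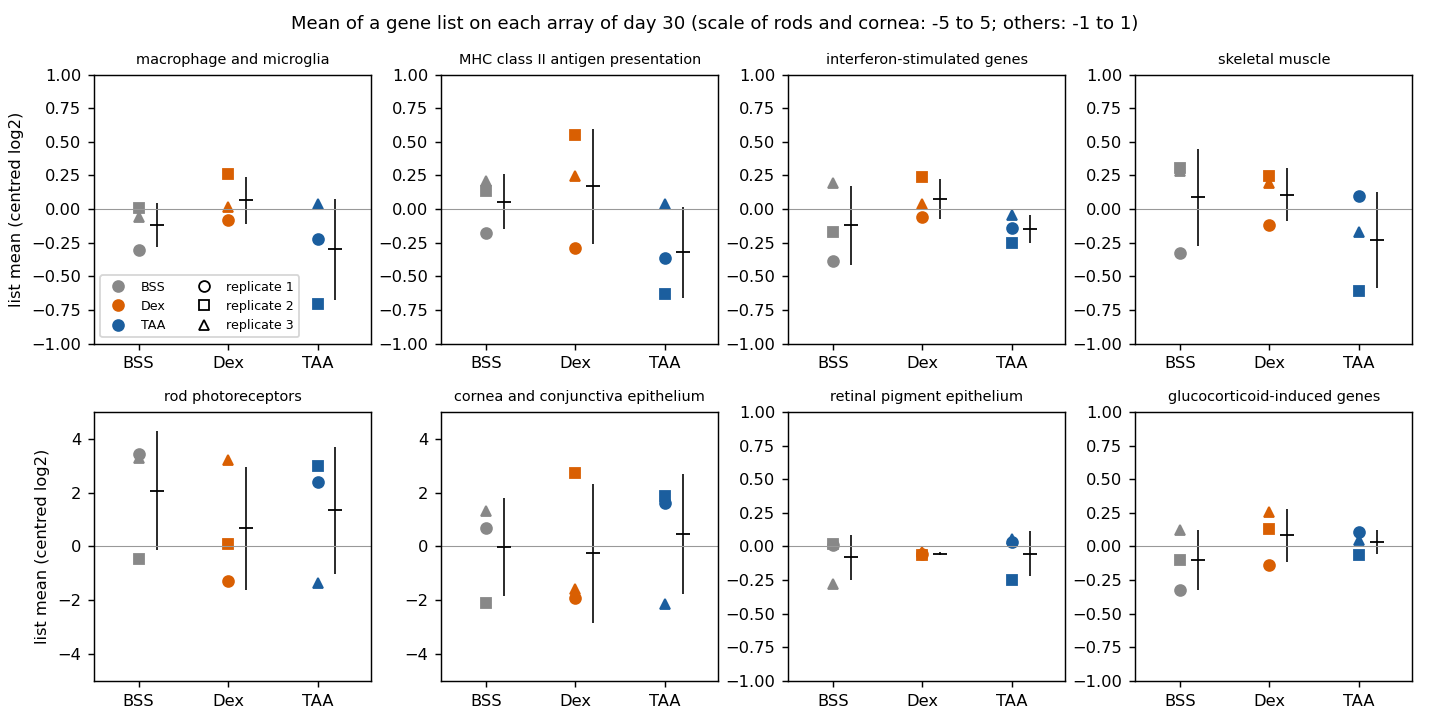
Mean centred log2 value of 8 gene lists (y axis) on the BSS, Dex and TAA arrays of day 30; markers give the replicate number and bars the mean and SD of 3 arrays, and the rod and cornea panels have a wider scale. TAA replicate 2 is the lowest array for macrophage and muscle genes, while each steroid has high and low arrays for rod and cornea genes.

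With higher values after TAA, 3 genes met the thresholds without overlap on a probe set with 1 gene symbol. Foxa1, a pioneer transcription factor of endoderm and secretory epithelia, was at -0.021, -0.041 and -0.046 after Dex, 0.89, 2.11 and 0.021 after TAA and 0.70, -0.099 and 1.23 after BSS. The Dex arrays were flat, whereas the TAA and BSS arrays were spread and held both values near 0 and high ones. The difference was 1.04 (log2, SE 0.43, unadjusted p = 0.0285), and it had a nominal p of at most 0.05 in 2 of the 6 fits that left out an array. Without TAA replicate 2 it was 0.49, and without TAA replicate 3 it was 1.54. Pcdh9, a protocadherin of neural cell contacts, differed by 0.76 (log2, SE 0.27, unadjusted p = 0.0135) on 1 probe set, while its other probe sets gave 0.13 and 0.16. Cntn3, a contactin of neurites, differed by 0.66 (log2, SE 0.26, unadjusted p = 0.0242) on 1 probe set and by 0.12 on the other. For both genes the probe sets disagree in size and agree in sign.

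The other lower genes named by their size were Gm26588 and Nisch. Gm26588, a predicted gene of no stated function, was at 0.19, 1.02 and 0.74 after Dex, -0.016, -0.21 and -0.19 after TAA and -0.22, -0.33 and 0.016 after BSS. The TAA arrays lay within the range of the BSS arrays and the Dex arrays above both, and the difference was -0.79 (log2, SE 0.21, unadjusted p = 0.00202). From these same arrays, the study had listed its probe set, without a gene name, as higher after Dex than after BSS at 1 month. Nisch, which encodes the imidazoline and integrin binding protein nischarin, was at -0.13, 0.068 and 1.08 after Dex and -0.46, -0.33 and -0.38 after TAA. Dex replicate 3 was far above the rest. The difference was -0.73 (log2, SE 0.25, unadjusted p = 0.0106), and without that array it was -0.36. A second probe set gave -0.77, and the other 3 of its 5 probe sets gave -0.12, -0.042 and 0.16.

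No gene induced through the glucocorticoid receptor passed the adjusted threshold between the steroids at 1 month. Of 25 glucocorticoid-induced genes, 12 were higher and 13 lower after TAA, with a median of -0.028, and 1, Cyp7b1, had a nominal p of at most 0.05, beside 0.533% of all genes that were higher at that p. Cyp7b1, an oxysterol hydroxylase, was at -0.23, -0.18 and -0.43 after Dex and -0.025, -0.17 and 0.033 after TAA. The arrays did not overlap, and the difference was 0.23 (log2, SE 0.095, unadjusted p = 0.0299). Tsc22d3, which encodes the leucine zipper protein GILZ, was at -0.14, -0.22 and -0.13 after Dex and -0.059, -0.29 and -0.13 after TAA. The groups overlapped, and the 95% interval of the difference was -0.27 to 0.29, so that a difference of 1.5-fold in either direction lies outside it. Fkbp5, a chaperone that dampens the receptor, had an interval of -0.27 to 0.46, and Sgk1, the serum and glucocorticoid regulated kinase, one of -0.15 to 0.27; the sign for Tsc22d3 turned under other settings. These 3 genes were named after their values were seen, Sgk1 because, of the 30 promoter windows found for 20 of the 25 genes, its own was the only one with a match to the whole element, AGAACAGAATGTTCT. Nr3c1, the receptor itself, was at 0.024, -0.027 and 0.019 after Dex and -0.071, -0.11 and -0.075 after TAA, which did not overlap yet differed by -0.090 (log2, SE 0.082, unadjusted p = 0.291).

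The array means of the glucocorticoid-induced genes were -0.14, 0.13 and 0.25 after Dex, 0.11, -0.061 and 0.048 after TAA and -0.32, -0.098 and 0.12 after BSS. The 3 groups overlapped. Against the shared BSS arrays the list median was 0.13 for TAA and 0.18 for Dex. When single arrays were left out, the TAA minus Dex median of the list took either sign, from -0.060 to 0.024. The clock list had a median of 0.0054 over 20 genes, with 11 higher and 9 lower after TAA and 0 at a nominal p of at most 0.05 in limma. Arntl, which encodes the activator Bmal1, had a 95% interval of -0.41 to 0.16, and its partner Npas2 one of -0.49 to 0.12.

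The RPE list was divided between the steroids, while the vascular and matrix lists had mostly negative TAA minus Dex differences. Of 20 RPE genes, 11 were higher and 9 lower after TAA, all between -0.18 and 0.14, and Rpe65 had a 95% interval of -0.14 to 0.31. All 15 genes of the vessel wall list were lower after TAA, with a median of -0.14. Des, which is also in the muscle list, was the only one at a nominal p of at most 0.05, beside 1.08% of all genes lower at that p. Without Dex replicate 2 the count of lower genes was 9 of 15 and the median -0.049. The endothelial list had 13 of 14 lower, with a median of -0.14 and 0 in limma at that p, and without TAA replicate 2 it had 9 of 14 lower and a median of -0.086. The list of steroid glaucoma and matrix genes had 13 of 15 lower with a median of -0.12, and the VEGF list 12 of 16 lower with a median of -0.063. Without Dex replicate 2 these were 9 of 15 with -0.034 and 8 of 16 with -0.0092. Against the shared BSS arrays, the vessel wall median was 0.29 for TAA and 0.42 for Dex, and the endothelial median 0.27 and 0.43. For the matrix list these medians were 0.12 and 0.23, and for the VEGF list 0.14 and 0.22. The BSS arrays were widely spread, with endothelial list means of -0.74, 0.19 and -0.46. Cholesterol synthesis genes were higher after TAA in 12 of 14, with a median of 0.10. That count was 8 of 14 with a median of 0.020 without Dex replicate 3, 8 of 14 with 0.023 without TAA replicate 2, and 12 of 14 with 0.26 without Dex replicate 2. Hmgcs1, which makes the precursor of mevalonate, differed by 0.23 (log2, SE 0.14, unadjusted p = 0.116), with all TAA arrays above all Dex arrays, and Idi1, an isomerase of the pathway, by 0.35 (log2, SE 0.22, unadjusted p = 0.139). Without Dex replicate 3 they differed by 0.083 and 0.12.

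Neurotransmitter genes had mostly positive differences. Glutamate receptors and transporters were higher after TAA in 16 of 18 measured genes, with a median of 0.14, and the GABA, dopamine and serotonin list in 12 of 16, with a median of 0.14; 0 genes of either had a nominal p of at most 0.05 in limma. With the rod list as a covariate the count of glutamate genes was 14 of 18 and their median 0.072, and without Dex replicate 2 they were 13 of 18 and 0.037. Without TAA replicate 2, 12 of 18 glutamate genes were higher with a median of 0.047, and the GABA, dopamine and serotonin list turned, with 9 of 16 lower and a median of -0.016. Grik1, a kainate receptor subunit, was at -0.060, -0.39 and -0.29 after Dex and -0.19, -0.029 and 0.13 after TAA, with overlapping arrays and a 95% interval of -0.14 to 0.57. Grm7, a presynaptic glutamate receptor, had an interval of -0.090 to 0.26. Snap25, a protein of synaptic vesicle fusion, was at -1.22, 0.00055 and 3.86 after Dex and 3.12, 3.95 and -0.90 after TAA, with its high values on the arrays with high rod genes; the part of retinal tissue in it was not tested.

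**Figure D4:**
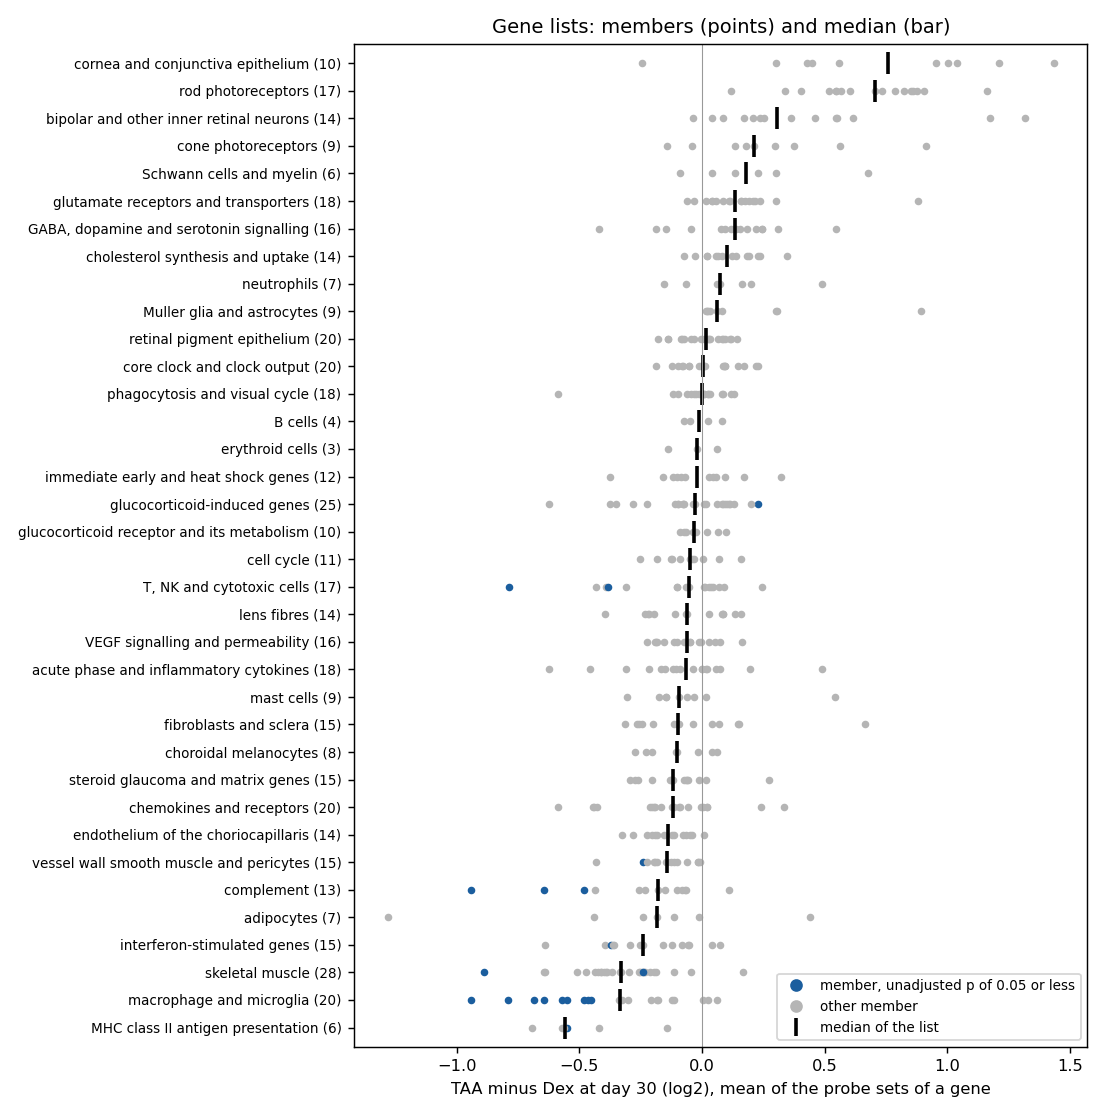
TAA minus Dex difference at day 30 (log2, x axis) of each measured gene of 36 lists (points, blue at a nominal p of at most 0.05) with the median of each list (bar); numbers of measured genes are in brackets. The blue points lie below 0 except for Cyp7b1, 9 of them in the macrophage list, and the rod and cornea lists have the highest medians with no blue point.

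The genes that the study discusses at 1 month or tested by qPCR were set side by side between the steroids. Of these 18, 7 were higher and 11 lower after TAA, with a median of -0.032, and 0 had a nominal p of at most 0.05 in limma. The list was chosen by the study on these arrays for differences from BSS and not for a difference between the steroids. The closest to the threshold was Foxs1, a forkhead factor of pericytes, at 0.48, 1.12 and 0.72 after Dex and 0.48, 0.41 and 0.41 after TAA. Its TAA arrays were at or below the lowest Dex array, and the difference was -0.35 (log2, SE 0.17, unadjusted p = 0.0626), or -0.17 without Dex replicate 2. Pcdh17, a protocadherin, differed by 0.41 (log2, SE 0.23, unadjusted p = 0.0899), and Slc18a2, the vesicular monoamine transporter, by -0.42 (log2, SE 0.25, unadjusted p = 0.118). Lcn2, the iron-binding acute phase protein lipocalin 2, was at -1.79, 0.83 and 4.89 after Dex and 1.74, 1.45 and -1.13 after TAA, a range within each group far wider than the difference between them, whose sign turned when Dex replicate 3 or TAA replicate 3 was left out.

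At day 7 the steroids had been compared in the same way, and the change of their difference between the days was tested in the same fit. Between the steroids at day 7, 1217 probe sets (2.7%) were at a nominal p of at most 0.05 and 122 (0.271%) at the thresholds, with 0 called in limma. limma called 0 of 45101 probe sets for this change at an adjusted p under 0.05 (0%), and 716 (1.59%) had a nominal p of at most 0.05. The named gene with the smallest p was Saa3, an acute phase apolipoprotein of macrophages and fat, which was 2.03 higher after TAA than after Dex at day 7 and differed by -0.46 at day 30. On the arrays of day 30 it was at 0.22, -0.11 and -0.21 after Dex and -0.66, -0.54 and -0.26 after TAA, with no overlap and with the TAA arrays below. The change was -2.48 (log2, SE 0.42, unadjusted p = 3.52e-05), with an adjusted p of 0.64 in limma over all genes. Gzmc differed by -0.19 at day 7 and by -0.79 at day 30; as it was picked for its day 30 values, its change is given without a nominal p, and the adjusted p was 0.999974 in limma. Grm7 differed by -0.29 at day 7 and changed by 0.37 (SE 0.12), with an adjusted p of 0.999993 in limma.

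Lists were compared between the days by their medians. The macrophage median was -0.12 at day 7 and -0.33 at day 30, with 17 of 20 genes lower at both. The muscle median was -0.47 at day 7, with 28 of 28 lower. Rod genes were lower after TAA at day 7 in 17 of 17, with a median of -0.73, and higher in 17 of 17 at day 30. The change of a list between the days was not tested.

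**Figure D5:**
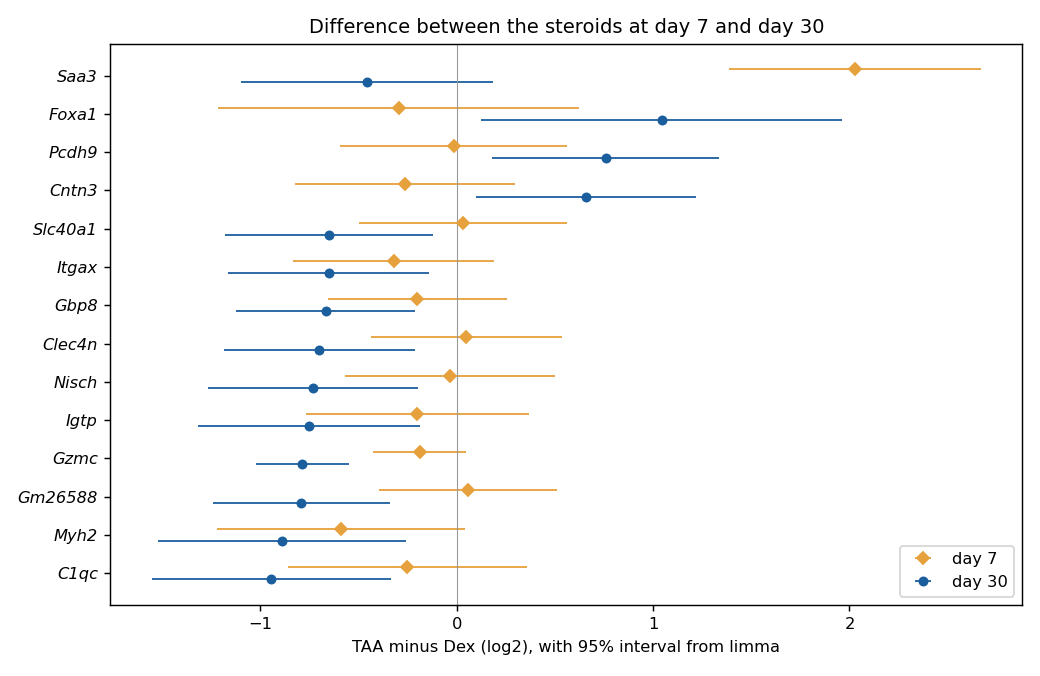
TAA minus Dex difference (log2, x axis) with its 95% interval from limma at day 7 (orange diamonds) and day 30 (blue circles) for the 13 genes with the largest differences at day 30 and for Saa3. For Saa3 the day 7 interval lies above 0 and the day 30 interval spans it; the 13 other genes were picked for their day 30 values, so that their day 30 intervals lie away from 0 by choice.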

How the data were processed

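RNA of the RPE/choroid was hybridized to Affymetrix mouse expression arrays, 1 per animal. The deposited log2 values were made by the authors with RMA in GeneSpring GX and centred on the median of the 18 arrays for each probe set (within 5e-07 of 0 in the file), with no filter on weak signals. The labels name a two-cycle labelling kit and the methods a 3′ IVT kit, so that the labelling is not settled. The number of arrays limits the precision.

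Groups were taken from the sample labels. limma 3.58.1 in R 4.3.3 fitted 6 group means to all 18 arrays (12 residual and 3.29 prior degrees of freedom), with Benjamini-Hochberg adjustment over all 45101 probe sets. The methods' thresholds were a nominal p of at most 0.05 and a fold of at least 1.5. Of the probe sets, 34958 had 1 gene symbol, 932 several and 9211 none, and 18194 genes were tested separately as the mean of their probe sets with 1 symbol. Named genes were up to 10 per direction with the largest difference (filled, where none passed the adjusted threshold, from probe sets at the methods' thresholds whose arrays did not overlap, with the value of the probe set with the smallest p), up to 4 per list at a nominal p of at most 0.05 (otherwise the first 3 of the list), the genes that the study names, and the 3 with the smallest p of the change between days. Not every gene so chosen is printed. The members and the 37 gene lists were chosen with earlier results of these data known. Promoter windows were read from RefSeq (GRCm38.p6). The scripts were tested on simulated data. Alternatives were other sets of arrays, array weights, a robust prior, the methods' t-test, quantile or median scaling, a filter on spread, a replicate block, the rod list as covariate, another choice of probe set, a stricter p and leaving out each array. Python 3.11.15 and matplotlib 3.10.9 drew the plots.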

Additional observations from a re-analysis of the deposited data

How the results depend on the processing

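No setting called a probe set between the steroids except the fit without BSS replicate 2 of day 30, chosen after seeing the data, which called 1, Gzmc (adjusted p = 0.0194 in limma). At gene level 1 gene, Gzmc, was called with array weights (adjusted p = 0.0101), a robust prior (0.0474), array medians subtracted (0.0364) and the rod list as covariate (0.0157) in limma, against 0.0547 as reported. Other limma fits gave Gzmc a higher adjusted p over the genes, 0.178 after quantile normalization and 0.573 without TAA replicate 2. It was 0.999984 with the 9 arrays of day 30 and 0.999982 with only the 6 arrays compared. With the methods' t-test another gene, Igbp1b, had the smallest p. The change between days called 0 probe sets under every alternative run in limma, with 716 at a nominal p of at most 0.05 as reported. The count at the methods' thresholds, 52 as reported, was 33 with the 9 arrays of day 30, 133 with array weights, 12 with the methods' t-test (8 lower), 88 after quantile normalization and 15 at a nominal p of at most 0.01. Leaving out 1 array gave 43 (without TAA replicate 2) to 266 (without TAA replicate 3), with 182 without Dex replicate 1, 179 without Dex replicate 2, 90 without Dex replicate 3 and 100 without TAA replicate 1. Of these, 22 of 43, 190 of 266, 158 of 182, 76 of 179, 59 of 90 and 91 of 100 were lower after TAA, in the order given. The cause was not tested.

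With the replicate block the count was 56, 0 probe sets were called in limma (801 at a nominal p of at most 0.05), and Gzmc had an adjusted p of 0.174 (genes, 0.0578). The numbers were not taken as pairs, since the deviations of same-numbered Dex and TAA arrays correlated at -0.42, 0.11 and -0.27.

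The filter on spread moved the median of the T, NK and cytotoxic list to -0.21 and of the Muller glia and astrocyte list to 0.19, and the rod covariate that of the mast cell list to -0.045. Leaving out 1 array gave medians of -0.20 to -0.058 for mast cells, 0.057 to 0.21 for neutrophils, 0.032 to 0.15 for Muller glia and astrocytes and -0.13 to -0.0092 for the VEGF list. Signs turned for Csf1r (-0.024 with array weights, -0.000434 after quantile normalization, -0.017 with the most variable probe set), Krt12 (2.90 with array weights, 0.15 after quantile normalization), Gnat1 (-0.029 with the rod covariate) and Tsc22d3 (-0.048 with the most variable probe set). Leaving out 1 array gave -0.060 to 0.057 for Csf1r, -2.90 to 2.90 for Krt12, -0.70 to 2.86 for Gnat1, -0.042 to 0.072 for Tsc22d3 and -2.18 to 1.16 for Lcn2. No other gene named in the report changed sign among those run through these alternatives, which left out Cybb, C3ar1, Itgb2, Irgm2 and Nlrc5. Centred values hold no signal over background, so that dim probe sets could not be set aside.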

Other observations

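Adipoq, which encodes the fat cell hormone adiponectin, was named after its values were seen. It differed by -1.28 (log2, TAA minus Dex), the most negative value of any list member, with an unadjusted p of 0.264 in limma, and by -0.77 without Dex replicate 2. The adipocyte list had 6 of 7 genes lower and a median of -0.18, or -0.058 without TAA replicate 3. S100a9, a calcium-binding protein of neutrophils, differed by 0.49 with an unadjusted p of 0.0733 in limma, or by 0.26 without Dex replicate 3, and 5 of the 7 neutrophil genes were higher.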
